A study of Mus musculus with 48 samples.

Results

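The IgLON and CSMD adhesion genes and Mdga2 were examined as 8 members of the mouse hippocampal m6A (N6-methyladenosine) landscape: Lsamp, Opcml, Ntm, Negr1, Csmd1, Csmd2, Csmd3 and Mdga2. Their regions were all those that overlapped the annotated gene bodies of these 8 of 22238 protein-coding genes on the mouse genome build mm9. This gave 365 of the 81807 regions formed by joining the m6A peaks of all animals. A further 395 rows of 10 deposited tables of differential peaks carried the name of a member.

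The study asked how the m6A pattern of hippocampal RNA differs between Huntington's disease mice and controls, before and after a spatial memory task. KI mice are heterozygous knock-in males, HdhQ7/Q111, in which 1 allele of the endogenous huntingtin gene carries an expanded CAG repeat under its own promoter. WT mice carry HdhQ7/7, and both genotypes were kept on a C57BL/6 background. Trained mice explored 2 identical objects among spatial cues (the object location task) and were killed 30 min afterwards, whereas naive mice were not trained. The conditions were KI trained, WT trained, KI naive and WT naive at 8 months and the same 4 at 5 months, with 3 animals in each. These 24 animals gave 48 libraries, an immunoprecipitate (IP) and an input each, made from fragments of total RNA, so unspliced RNA was within reach of the assay. No animal was measured in more than 1 condition, and the animals of 8 and of 5 months were separate sets, so age and any other difference between the sets cannot be told apart. The whole hippocampus was used: fewer cells of a type and less RNA per cell cannot be told apart. The amount of each RNA was not analysed here.

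The 4 IgLON proteins (Lsamp, Opcml, Ntm and Negr1) are small immunoglobulin-domain proteins held to the neuronal surface by a lipid anchor. They bind each other across cells and are known for their part in neurite outgrowth and synapse formation. Csmd1, Csmd2 and Csmd3 are very large transmembrane proteins built from CUB and Sushi domains, and Csmd1 is known as an inhibitor of complement. Mdga2, also lipid-anchored, binds neuroligins and keeps them from neurexins. All 8 genes are among the longest of the genome. The m6A mark is written on adenosines, most often within the core bases GGAC, and is known to be densest near stop codons and in 3'UTRs of mRNA, while introns are spliced out of the finished mRNA.

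Introns took up nearly all of each gene. Bodies measured from 580 kb (Csmd2) to 1643 kb (Csmd1), of which exons made up 0.64% (Mdga2) to 2.92% (Csmd2). Of the 365 regions, 330 had their summit in an intron, 34 in an exon and 1 in a gap of the annotation near the 3' end of Mdga2. By the summit of the best peak of each, 10 of the exonic regions lay in coding sequence, 9 in 3'UTRs, 8 in 5'UTRs and 7 in noncoding exons. None (0 of 330) of the intronic summits fell in an exon of another annotated gene. The peaks carry no strand, so a transcript antisense to a member cannot be told apart from it.

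Sequence at the summits set intronic and exonic regions apart. In the 100 bases centred on the summit and read along the transcribed strand, the median share of purines (A or G) was 64% in the 330 intronic regions of the members, against 57% in 25291 intronic regions of other genes and 63% in the 5077 of these that lay in genes of 500 kb or more. At least 70% purines were held by 36.4% of the members' intronic regions and by 34.1% of those in the other long genes, so the members resembled long genes in this. It was 52.5% in the 34 exonic regions, against 51% in 35337 exonic regions elsewhere, and 48.8% to 49.7% over whole gene bodies of the members. The intronic regions called in all 24 animals were the richest, with a median of 78%, and 18 of these 27 held 70% or more purines. Of the intronic regions of other genes called in all 24 animals, 31.1% did. These genes were of any length. The share in other genes of 500 kb or more was not computed, so whether constant introns of long genes share this is not known. The purine share was chosen as a measure after the sequences had been seen, and it is given as a description without a test.

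The following stretches of 30 bases, read from mm9, show the purine runs of 1 intronic region in each of 6 genes. Capitals mark bases of the longest run of the window. The runs of Opcml (39 bases), Negr1 (35) and Csmd3 (97) are longer than the stretch and are shown in part. The first 5 come from regions called in all 24 animals and the Csmd3 stretch from a region called in 10. The intronic region of Csmd3 called in all 24 animals had 71% purines and a longest run of 11 bases.
Opcml, chr9:28115824-28115853, plus strand: GGAAGGGGAGGGAGAGGGGGAGGGAGAGGG
Negr1, chr3:156430039-156430068, plus strand: AGGAAGGGAAGAAAGAGAGAGAGAGAGAGA
Lsamp, chr16:41989047-41989076, plus strand: atAAGAGGAAGAAGAGGAAGAAGAAGAaga
Mdga2, chr12:68012256-68012285, minus strand: atGGGAGAGGAGAGAGGAGAGAGGAGAGag
Csmd2, chr4:128198186-128198215, plus strand: gcacacatGAGAGAGAGAGAGAcagagaga
Csmd3, chr15:47967745-47967774, minus strand: GAAAGAAAGAAAGAAAGAAAGAAAGAAAGA

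Not all constant intronic regions followed this. An intronic region of Lsamp and one of Ntm, both called in all 24 animals, had 42% and 47% purines and held runs in which c and a alternate. They are shown beside the others because the purine pattern is not shared by them.
Lsamp, chr16:41975290-41975319, plus strand: catatcacatacatGtacacacacacactc
Ntm, chr9:29514015-29514044, minus strand: cacacacacactccAcacacacacacacac

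A pair of intronic regions near the starts of Lsamp (42.7 kb from the gene start) and Csmd1 (36.8 kb), each called in 23 animals, held the same 30 bases at the longest purine run of their windows.
Lsamp, chr16:41575628-41575657, plus strand: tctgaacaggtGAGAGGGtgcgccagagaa
Csmd1, chr8:17498691-17498720, minus strand: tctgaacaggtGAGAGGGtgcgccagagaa

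The core GGAC was searched on the transcribed strand of the same windows. It was present in 79 of the 330 intronic regions (23.9%), against 28.4% of other intronic regions, and on the opposite strand of 8.48%, against 18.2%. In intronic regions of other genes of 500 kb or more the shares were 26.3% and 11.9%. It was present in 11 of the 34 exonic regions (32.4%), against 43.2% of exonic regions elsewhere, and on the opposite strand of 29.4%, against 30.0%. The wider consensus DRACH (D is A, G or T, R is A or G, H is A, C or T) was searched too. It was present in 77.6% of the members' intronic and 79.4% of their exonic regions, against 79.1% and 87.0% elsewhere. Opposite-strand shares were 50% and 82.4%, against 64.0% and 77.5%. Of the members' 27 intronic regions called in all 24 animals 74.1% held DRACH. Of the 9 exonic regions called in all 24 animals 4 held GGAC. These are printed with GGAC in capitals because they are the members' most constant exonic regions with the m6A core.
Csmd3 3'UTR, chr15:47413889-47413918, minus strand: agcacacttttcaGGACttgctgggtcacc
Csmd2 noncoding exon, chr4:128243198-128243227, plus strand: caccaccaaagcaGGACtcgctgtttccat
Csmd1 coding sequence, chr8:15895684-15895713, minus strand: tcagtgccccctaGGACcgattcatagcca
Opcml 5'UTR, chr9:28211773-28211802, plus strand: gggctagggacaaGGACcttgtcgctgcag

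**Figure D1:**
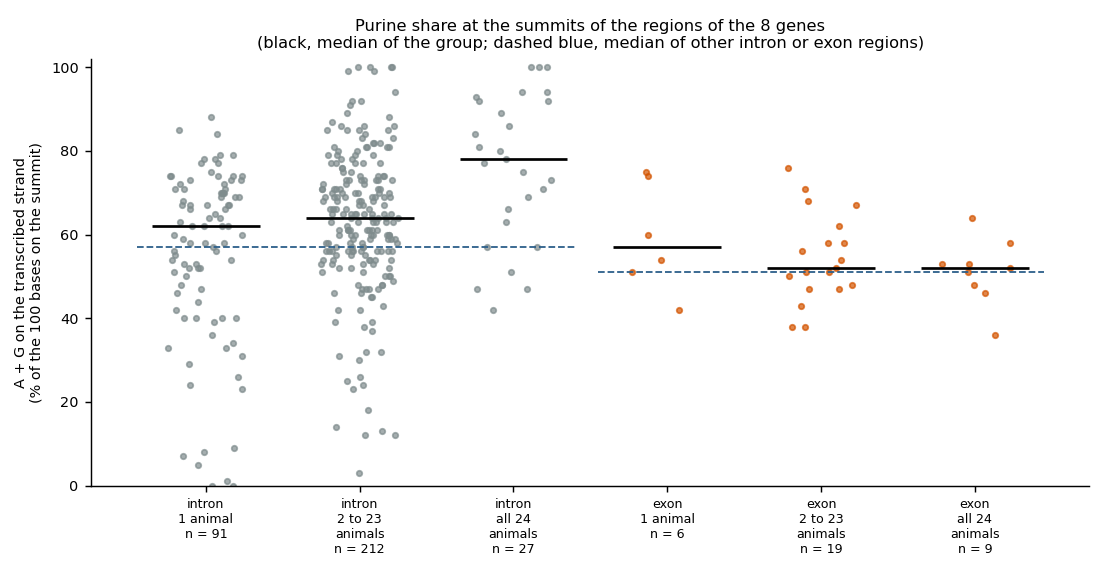
Share of A and G (%) in the 100 bases on the summit of each region of the 8 genes, on the transcribed strand, by position and by the number of animals with a peak. Each point is a region, black bars are medians (78% for the 27 intronic regions called in all 24 animals, 52% for the 9 exonic ones) and dashed blue lines mark the medians of the other intronic (57%) and exonic (51%) regions of the series.

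Intronic regions were less often shared between animals than exonic ones. The median intronic region was called in 4 animals and the median exonic region in 15, while the median over all regions of the series was 5. All 24 animals had a peak in 27 intronic regions (8.18%) and in 9 exonic ones (26.5%), against 14.9% of all regions. A single animal supplied 91 intronic and 6 exonic regions. Enrichment of IP over input at the summit (a fold, as MACS2 gives it) had a median of 4.16 over the intronic regions and of 3.35 over the exonic ones, against 4.57 over all regions. The exonic regions were thus found in more animals at a lower median enrichment.

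Csmd1, the complement inhibitor, carried the most regions. It had 86, of which 11 were called in all 24 animals, and 96.9% of its 861 peaks were intronic. Its exonic region close to the 3' end (chr8:15894899-15896065) was called in all 24 animals with a median enrichment of 8.29 (4.14 to 11.6). The best peak placed it in coding sequence. Over all animals, 17 exonic summits of Csmd1 lay in the 3'UTR and 8 in coding sequence. The intronic region 1268 kb from the start (chr8:16267432-16267929) reached a median of 8.78 (4.14 to 20.9), which put an intron beside the most enriched exon of the gene.

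The other CSMD genes had fewer constant regions. Csmd2 had 29 regions with 2 in all animals, an intronic one (median enrichment 4.71) and an exonic one at 99.7% of the body (6.51, from 2.67 to 9.72). The exonic one was classed as a noncoding exon, as were all 68 exonic peaks of Csmd2. This class holds exons of transcripts annotated without a coding sequence, and whether these exons are coding was not tested. Csmd3 had 51 regions, of which 22 came from a single animal and only 2 from all 24, namely an intronic one 935 kb from the start (median 3.99) and the 3'UTR (3.70, from 2.09 to 5.70). Peaks of Csmd3 were 90.3% intronic and those of Csmd2 70.2%.

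Among the IgLON genes, Opcml had the most regions (55, 7 in all animals) and Lsamp the fewest (26, 2 in all animals). The constant regions of Lsamp were both intronic, and its 3'UTR region (chr16:42174178-42174966) was called in 21 animals with a median enrichment of 1.95. Ntm had the lowest intronic share, 67.5% of 335 peaks, and a pair of 3'UTR regions called in all animals (medians 3.64 and 2.17). Negr1 had 37 regions with 3 in all animals, all intronic, and the highest median enrichment among these was 8.69 (chr3:156913350-156914019). Opcml showed a constant 5'UTR region of an inner start, 613 kb into the gene (median 4.90), and a constant 3'UTR region (3.35).

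Mdga2, the neuroligin partner, had 41 regions with 6 in all animals. A pair of these lay in coding exons (chr12:67730948-67731402 and chr12:67756095-67756574), with median enrichments of 5.94 and 5.08. Its intronic region 311 kb from the start (chr12:68011431-68012568) had the highest median of all constant regions of the members, 10.0, with a range of 5.00 to 31.3. The region over the gap in the annotation (chr12:67570673-67572736) was called in all 24 animals with a median of 9.17.

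**Figure D2:**
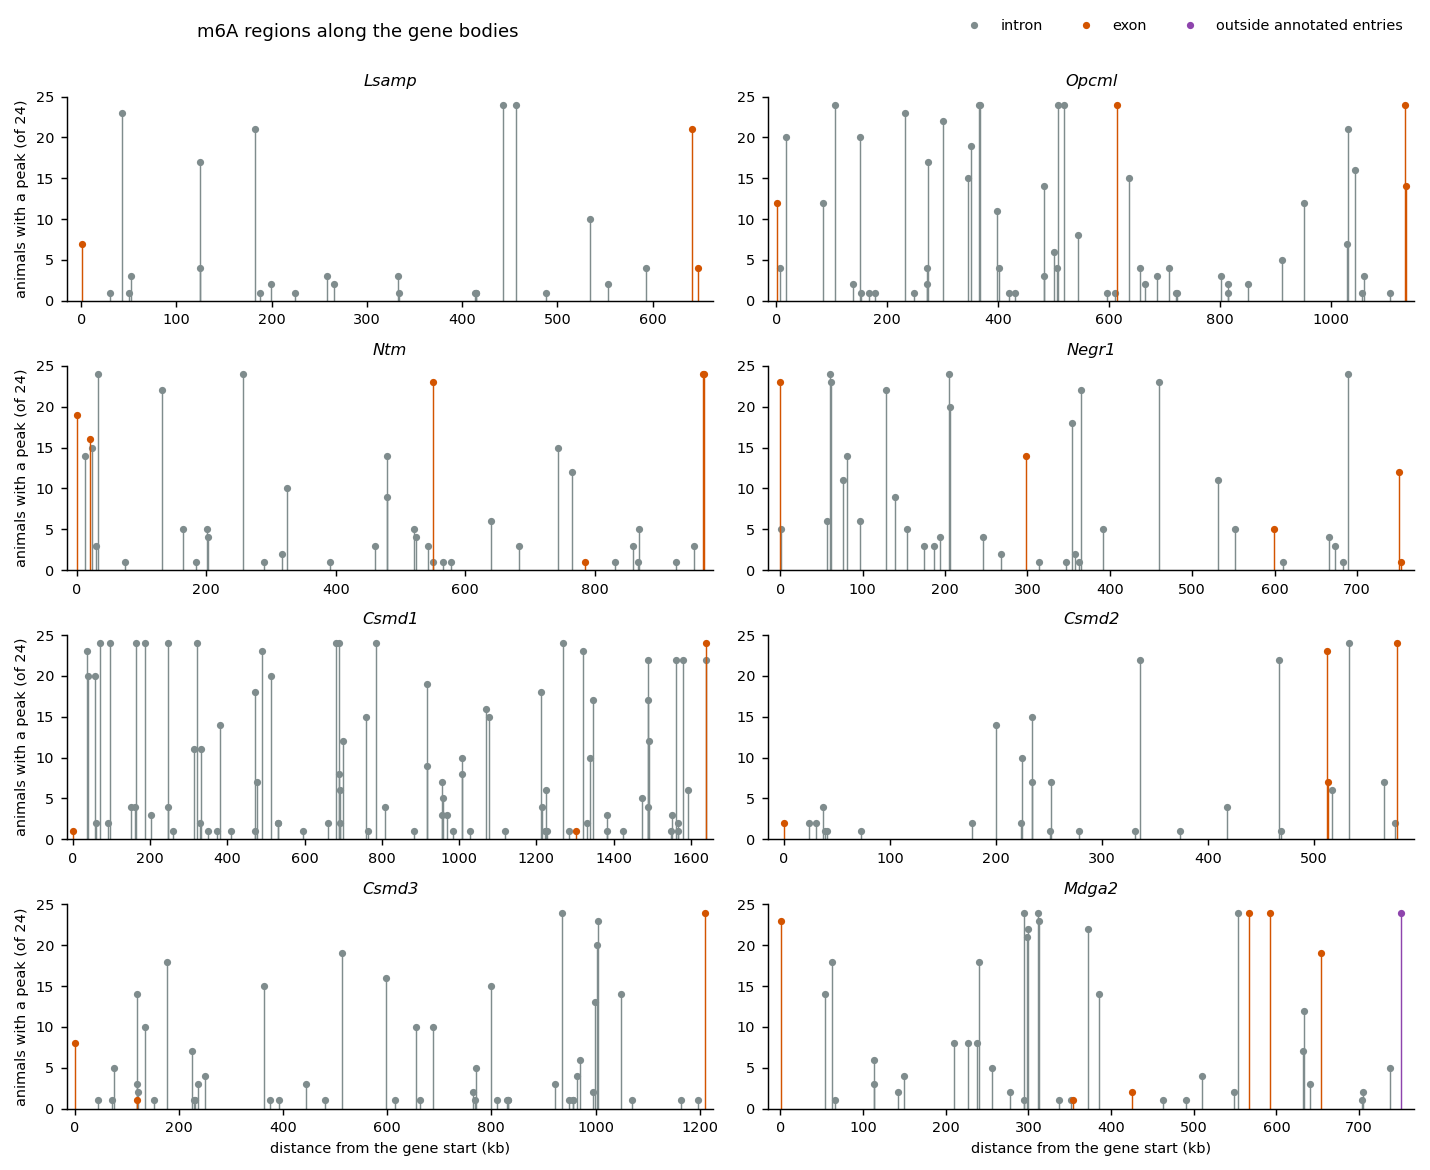
Number of animals (of 24) with a peak in each of the 365 regions, by distance of the summit from the gene start (kb), for intronic (grey) and exonic (orange) regions and the region in the annotation gap of Mdga2 (purple). Lines that reach 24 are spread over introns, 27 in all, and stand at the 3' end of Opcml, Ntm, Csmd1, Csmd2, Csmd3 and Mdga2.

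Peaks per 100 kb of intron and animal ran from 0.981 in Ntm to 2.14 in Csmd1, with a median of 1.42 over the members. The median was 0.932 over the 191 other genes of 500 kb or more and 0.342 over shorter genes with a peak. In the members 84.2% of summits were intronic, in the other long genes 82.8% and in genes under 500 kb 26.1%. By the number of intronic summits per animal Csmd1 ranked 4 of 22238 genes, and by summits per 100 kb of intron it ranked 27 among the long genes. Relative to their length, exons held more: from 5.91 peaks per 100 kb in Csmd1 to 80.8 in Mdga2.

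The yield of the assay differed between animals. Total peaks ran from 22601 to 57293 per animal, with a mean of 38715 ± 8073 in KI and 32735 ± 5973 in WT, 33238 ± 5822 in trained and 38211 ± 8542 in naive, and 38869 ± 8513 at 8 and 32580 ± 5129 at 5 months (SD, n = 12 each). Read numbers are not in the files used here, and where no peak was called m6A may still be present. Of 10 hippocampal neuron markers, 8 to 9 had a peak in each animal. Of 10 choroid plexus markers, 3 to 8 had one in KI and 2 to 7 in WT animals, with Kl and Prlr in all 24. The part of either in the results was not tested.

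The 8 genes together had from 81 peaks (a WT trained animal of 5 months) to 243 (a KI naive animal of 5 months), with a mean of 138 ± 35.2 per animal (SD, n = 24). KI animals averaged 150 ± 39.0 and WT animals 127 ± 27.7, with ranges of 86 to 243 and 81 to 184. Trained animals averaged 126 ± 26.7 and naive animals 151 ± 39.1, with highest animals at 170 and 243. At 8 months the mean was 131 ± 27.7 and at 5 months 146 ± 41.0, with ranges of 86 to 177 and 81 to 243. The animals of each pair overlapped. The intronic share per animal was 84.2 ± 3.07% and kept between 78.2% and 90.5%.

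Taking an equal number of the best peaks from each animal, 22601, changed these contrasts. The members then held 86.2 ± 19.0 peaks in KI and 89.8 ± 18.2 in WT, and 85.3 ± 12.1 in trained and 90.7 ± 23.2 in naive animals. They held 75.2 ± 8.6 at 8 months and 100.8 ± 16.3 at 5 months (SD, n = 12 each). The difference between genotypes thus turned round with the yield made equal, while that between the ages widened, opposite to the total yield, which was higher at 8 months.

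Csmd3 had fewer peaks at 8 than at 5 months. Its numbers were 11, 8 and 7 in KI trained, 12, 12 and 12 in WT trained, 17, 11 and 15 in KI naive and 9, 11 and 7 in WT naive mice of 8 months. At 5 months they were 18, 17 and 16 in KI trained, 13, 6 and 15 in WT trained, 27, 14 and 20 in KI naive and 15, 18 and 18 in WT naive mice. The 12 animals of 8 months ran from 7 to 17 with a median of 11, and those of 5 months from 6 to 27 with a median of 16.5, so the ages overlapped. In 3 of the 4 pairings of genotype and training the means were lower at 8 months, whereas in WT trained mice they were 12 at 8 months and 11.3 at 5 months.

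The difference was tested on log2(peaks + 1) with limma over 9402 genes that averaged at least 1 peak per animal. Csmd3 fell by 0.52 ± 0.13 (SE) with age, at a Benjamini-Hochberg adjusted p = 0.0243. It was the only member called, against 0.117% of all genes called lower and 11.7% called higher at 8 months. The 7 other members were not called. Csmd2 stood at -0.27 ± 0.12 (adjusted p = 0.147) and Csmd1 at -0.17 ± 0.11 (0.311), and Lsamp alone was above 0, at 0.13 ± 0.13 (0.504). Over the members the median difference was -0.09, against 0.16 over all genes and -0.07 over 180 other long genes, of which 3 were called higher and 2 lower. With the total number of peaks as a covariate, Csmd3 stood at -0.72 with an adjusted p of 0.191, and with intronic summits only at -0.55 and 0.127. Its adjusted p ran from 0.00988 to 0.191 over 28 alternatives, and it stayed below 0.05 without each of the 24 animals in turn (0.0104 to 0.0467).

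Of 19 related genes (IgLON, MDGA, SEZ6, CADM, NCAM and other immunoglobulin adhesion genes), 2 rose with age and none fell in the same fit, in which 11.7% of all genes rose. Mdga1, which like Mdga2 binds neuroligins, rose by 0.95 (adjusted p = 0.00922) and Sez6, a CUB and Sushi domain protein, by 0.56 (0.0289). With total peaks as a covariate Mdga1 stood at 0.58 (adjusted p = 0.306) and Sez6 at 0.33 (0.569), and 0.0213% of all genes were called higher. Mdga1 averaged 9.29 summits per animal in a body of 142 kb with 30.9% of them intronic, and Sez6 averaged 7.38 in 48.2 kb with 35%.

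Between genotypes no member was called (0 of 8 by limma), against 0.0851% of all genes called higher in KI. At an unadjusted p under 0.05, 3 members and 14% of all genes were higher in KI. All 8 differences were above 0, from 0.07 in Csmd2 to 0.35 ± 0.14 in Ntm (adjusted p = 0.328), with a median of 0.22 against 0.14 over all genes, and so were 82.6% of all genes and 173 of 180 other long genes. With total peaks as a covariate 4 of 8 were above 0 and the median was -0.01. Training gave 0 of 8 calls as well, against 0.0106% of genes called lower. At an unadjusted p under 0.05, 2 members and 7.56% of all genes were lower in trained mice. All 8 were below 0, with the largest distance in Negr1, -0.39 ± 0.15 (adjusted p = 0.620), and a median of -0.24 against -0.10 over all genes. Only 19.4% of all genes and 3 of 180 other long genes were above 0 for training. With the covariate 2 of 8 were above 0. None of 32 tests of a difference between these changes (of training between genotypes, or of genotype or training between ages) passed (smallest adjusted p = 0.312). At an unadjusted p under 0.05 there were 7, of which 4 were for training between KI and WT mice at 8 months, where 12.1% of all genes passed on the lower and 0.117% on the higher side. A further 2, on the lower side, were for genotype between ages, where 285 of 9402 genes passed on that side. For training between ages there was 1 on the higher side, where 108 of 9402 genes passed.

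**Figure D3:**
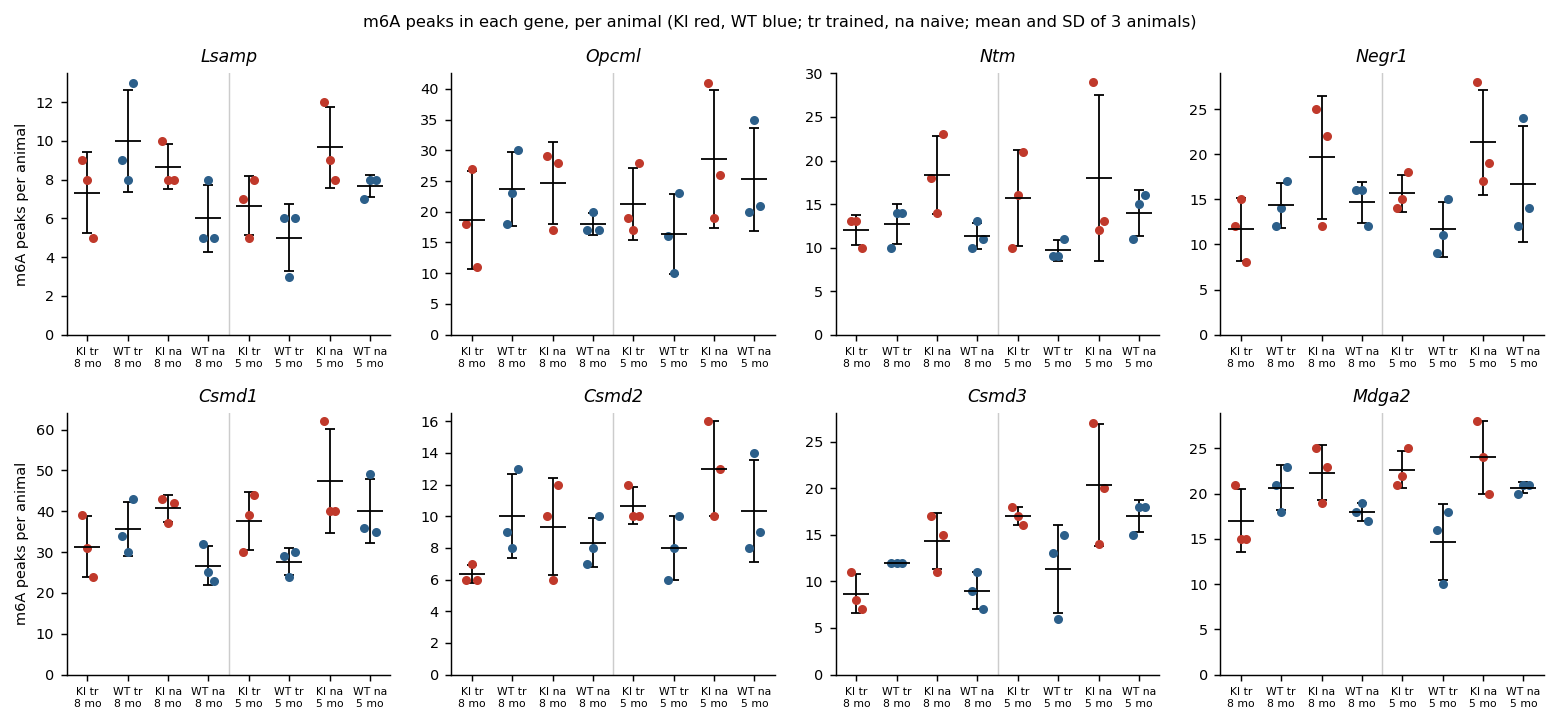
Number of m6A peaks in each of the 8 genes per animal, for KI (red) and WT (blue) mice, trained (tr) or naive (na), at 8 and 5 months (mo). Points are animals, and bars give the mean and SD of 3. Csmd3 lies at 7 to 17 peaks at 8 months and at 6 to 27 at 5 months, and 1 KI naive animal of 5 months is highest in Opcml (41), Ntm (29) and Csmd1 (62).

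**Figure D4:**
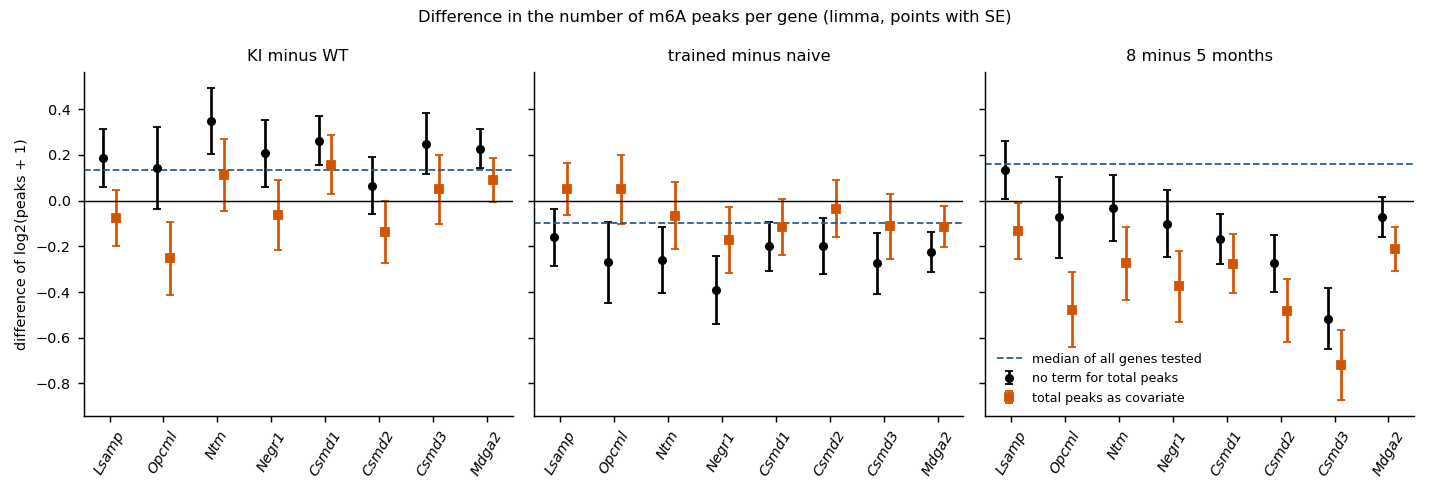
Differences of log2(peaks + 1) for each gene, KI minus WT, trained minus naive and 8 minus 5 months, without (black circles) and with (orange squares) the total number of peaks as a covariate, with SE. The dashed line is the median of 9402 genes without the covariate (0.14, -0.10 and 0.16), and Csmd3 at 8 against 5 months is the only black circle called (-0.52).

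Single regions were compared by whether each animal had a peak, over the 172 member regions called in 3 to 21 animals (159 intronic, 13 exonic). No member region passed Fisher's exact test, 2-sided on 12 against 12 animals, after adjustment over the 35110 regions of the series, for genotype (0.00285% of all regions called), training (0%) or age (0%). At an unadjusted p under 0.05, 5 member regions were called more often in KI (2.91%, with 1.72% of all regions) and none more often in WT (0.0684% of all regions). None was called more often in trained mice (0.128% of all regions) and 6 were in naive mice (3.49%, with 1.31% of all regions). With age the count was 2 at 8 months (1.16%, with 8.86% of all regions) and 2 at 5 months (1.16%, with 0.937%).

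For age, the most distant region was in the 3'UTR of Negr1 (chr3:156975665-156976088). It was called in 10 of 12 animals of 8 months and in 2 of 12 animals of 5 months (Fisher's exact p = 0.00333, adjusted p = 0.256). Enrichment in the 10 animals of 8 months ran from 1.91 to 3.23, with a median of 2.24, and was 1.81 and 2.28 in the 2 of 5 months. A coding exon of the same gene (chr3:156522197-156522561) was called in 10 animals of 8 months and in 4 of 5 months (Fisher's exact p = 0.0361). Both are exonic, and both were called more often at 8 months.

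An intronic region of Csmd3 (chr15:47967533-47967997), whose GAAA repeat is printed among the sequences, went the other way. It was called in 2 animals of 8 months, both KI naive, and in 8 of 5 months (Fisher's exact p = 0.0361). The same region had a peak in 8 KI and 2 WT animals (Fisher's exact p = 0.0361), and 6 of the 8 KI calls came from the 6 KI animals of 5 months. In Ntm, 5 KI animals and no WT animal had a peak in an intronic region (chr9:29250131-29250609), and in Csmd1, 12 KI and 7 WT animals had one at chr8:16618147-16618556 (Fisher's exact p = 0.0373 each). None of these passed the adjustment (adjusted p = 1 for each genotype comparison).

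For training, an intronic region of Csmd1 (chr8:16466948-16467386) was called in 5 trained and 11 naive animals (Fisher's exact p = 0.0272). Intronic regions of Lsamp (chr16:42066807-42067070) and Csmd3 (chr15:48488451-48489005) were each called in 2 trained and 8 naive animals (Fisher's exact p = 0.0361). The adjusted p was 1 for each. The Csmd3 region had a peak in all 3 KI naive animals of 8 months and in none of the other 9 of that age, while at 5 months it was called in 1 KI trained, 1 WT trained, 2 KI naive and 3 WT naive animals.

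With 3 animals against 3, few regions were called in all animals of one condition and none of the other. In naive mice of 8 months this held for 5 of 233 member regions in KI and 0 in WT mice, with 1.15% and 0.0384% of all regions, and in naive mice of 5 months for 2 of 308 in KI and 0 in WT mice (0.726% and 0.123% of all). In trained mice of 8 months it held for 1 of 218 in KI and 4 in WT mice (0.122% and 0.585% of all), and in trained mice of 5 months for 4 of 214 in KI and 0 in WT mice (1.83% and 0.0276% of all).

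Between trained and naive KI mice of 8 months the count was 0 of 248 in trained and 7 in naive mice (0.0404% and 1.51% of all regions), and at 5 months 1 of 302 and 3 (0.31% and 0.38%). In WT mice it was 2 of 211 in trained and 0 in naive mice at 8 months (0.557% and 0.178%), and 0 of 235 and 2 at 5 months (0.0483% and 1.06%). Between 8 and 5 months it was 0 of 228 at 8 and 4 at 5 months in trained KI mice (0.346% and 0.914%), 1 of 311 and 2 in naive KI mice (2.07% and 0.294%), 0 of 213 and 0 in trained WT mice (2.5% and 0.0244%), and 0 of 240 and 2 in naive WT mice (0.636% and 0.542%). These pairs share conditions with each other.

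The side on which a region was called more often differed between ages in the members and the series. Of the 172 regions, 43 (25%) were called in more animals of 8 months and 105 (61.0%) in more of 5 months, whereas over all regions these shares were 61.6% and 28.5%. The intronic regions of the members split 36 to 99 and the exonic ones 7 to 6. Intronic regions in other genes of 500 kb or more split 734 to 1480, those in genes under 500 kb 5261 to 3733, and exonic regions in genes under 500 kb 10867 to 1422. Csmd3 was the furthest to one side, with 3 of its 23 regions called more often at 8 and 20 at 5 months. The members thus followed the intronic regions of other long genes more closely than the regions of shorter genes, as counts without a test, since regions of 1 animal share its yield.

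The purine share went with the side as well. Intronic member regions called more often at 8 months had a median purine share of 58.5% and those called more often at 5 months one of 65%. In other genes the values were 52% and 64%. For genotype and training the members split like the series: 117 regions (68.0%) were called in more KI animals, with 67.5% of all regions, and 30 (17.4%) in more trained animals, with 21.6% of all.

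**Figure D5:**
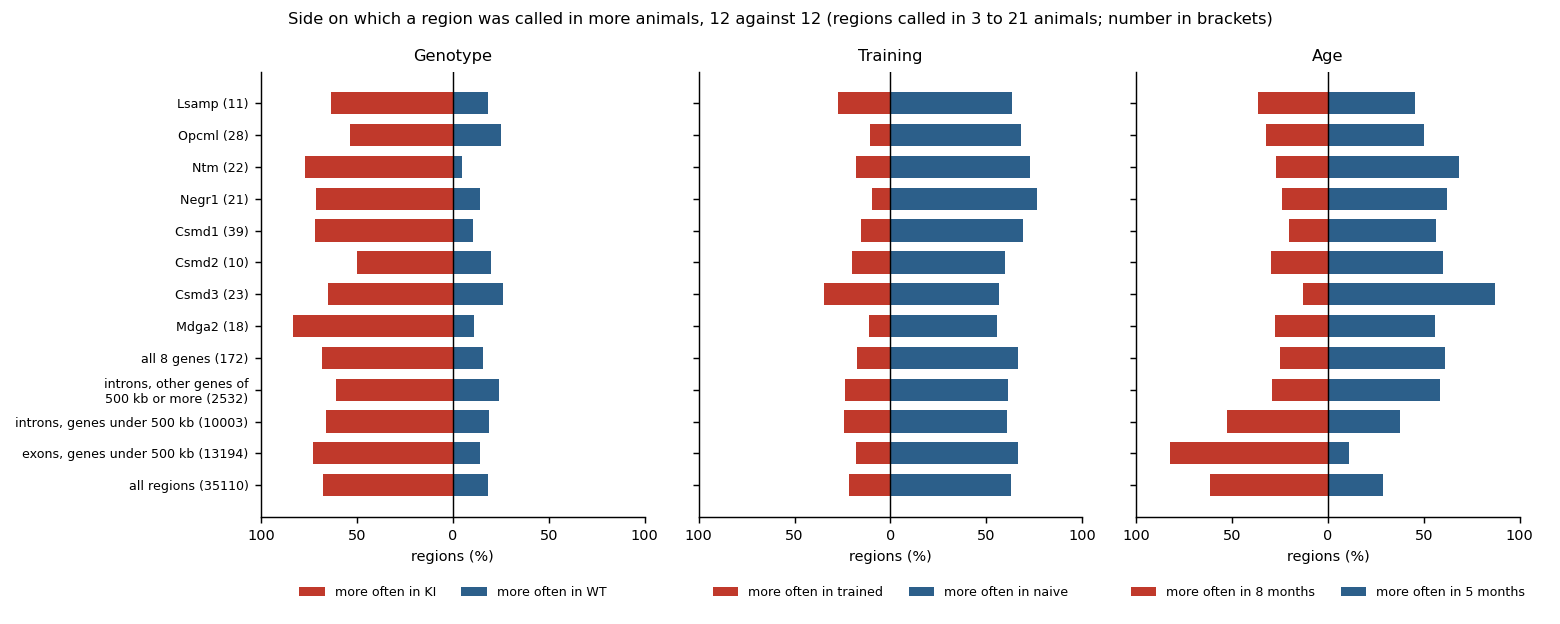
Share of regions (%) called in more animals on the left-hand side (red: KI, trained, 8 months) or on the right-hand side (blue: WT, naive, 5 months), 12 animals against 12, for each gene and for comparison sets. The number of regions called in 3 to 21 animals stands in brackets. For age, the 8 genes together extend 25% to the 8-month and 61.0% to the 5-month side, and all regions 61.6% and 28.5%.

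How strongly a region was enriched could be compared for the 37 member regions among the 12187 called in all 24 animals. No member region passed limma on log2 enrichment, centred per animal, for genotype, training or age or within any of 8 pairs of conditions, where 0% of all regions were called for genotype and age and 0.00821% lower for training. At an unadjusted p under 0.05 the members gave 1 higher region for genotype, 2 higher for training and 5 lower for age. The background at that threshold was 2.11%, 2.01% and 4.13%. Of the 37 differences 9 were above 0 for genotype, 25 for training and 11 for age, with 50.2%, 49.97% and 50.2% over all regions.

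The 3 regions with the smallest p for age lay in introns. The Csmd2 region at chr4:128197944-128198447 ran from 2.77 to 7.27 with a median of 4.03 at 8 months, and from 2.99 to 10.0 with a median of 6.16 at 5 months. Its difference was -0.67 ± 0.19 on the log2 scale (SE, adjusted p = 0.385). The Csmd1 region at chr8:16855383-16855833 ran from 2.05 to 3.19 at 8 and from 2.53 to 4.07 at 5 months (-0.34 ± 0.12, adjusted p = 0.509). The Mdga2 region at chr12:68011431-68012568 ran from 5.00 to 26.8 and from 6.35 to 31.3 (-0.61 ± 0.25, adjusted p = 0.562). The ages overlapped in each of them.

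For genotype, the intronic Opcml region at chr9:28105553-28106188 ran from 2.45 to 7.60 in KI and from 2.16 to 4.07 in WT animals (0.42 ± 0.18, adjusted p = 0.996). For training, the intronic Csmd1 region at chr8:16267432-16267929 ran from 5.92 to 20.9 in trained and from 4.14 to 16.9 in naive animals (0.46 ± 0.19, adjusted p = 0.9997). None of 148 tests of a difference between these changes passed (smallest adjusted p = 0.688). At an unadjusted p under 0.05 there were 5, and 1.31% to 2.97% of all regions passed on either side. Of the 5, 4 were lower for training between KI and WT mice at 8 months. These were 4 of 37 member regions, where 2.57% of all regions passed on that side. For genotype between ages 1 was higher, with 2.03% of all regions.

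The deposited tables give, for peaks with a p of up to 0.05, the mean level of each group on the log2 scale, as the authors' means without a spread. They were therefore read as levels, not tested. The 8 tables of a single pair of conditions held 336 member rows, 237 intronic, 31 exonic and 68 outside the bodies, of which 67 carried the name Lsamp. In 55 rows the levels differed by more than 1, with 20 higher and 35 lower in the first-named group. The 4 tables of KI against WT had 153 rows, 79 higher and 74 lower in KI, and the 4 of trained against naive had 183, 69 higher and 114 lower in trained mice. All these sums include rows outside the bodies and join tables that lean differently, so no direction is read from them. The share of all listed peaks that were higher ran from 32.7% to 78.7% over the tables of KI against WT. Over those of trained against naive it ran from 15.9% to 50.4%.

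The balance differed between tables. In trained against naive WT mice of 5 months 2 of 51 member rows were higher, where 15.9% of all listed peaks were. In trained against naive KI mice of 5 months 6 of 42 were higher, with 50.4% of all. In trained against naive WT mice of 8 months 43 of 50 were higher, with 49.6% of all, and in KI mice of 8 months 18 of 40, with 45.3%. The last count held 10 rows outside the bodies, all of them higher, whereas 7 intronic rows were higher and 22 lower. Each of the 8 tables held rows outside the bodies, from 4 to 11. In trained against naive KI mice of 5 months 10 rows lay outside, and 2 intronic rows were higher and 30 lower. Between KI and WT mice, 10 of 46 were higher in KI trained mice of 8 months (58.5% of all), 25 of 32 in KI trained mice of 5 months (78.7%), 28 of 42 in KI naive mice of 8 months (63.8%) and 16 of 33 in KI naive mice of 5 months (32.7%). Intronic and exonic rows leaned opposite ways in a pair of these tables: in KI against WT trained mice of 8 months 4 intronic rows were higher and 32 lower, but 5 exonic rows higher and 1 lower. In trained against naive WT mice of 8 months 34 intronic rows were higher and 2 lower, but 2 exonic rows higher and 4 lower. These tables share groups of animals with each other, so their counts are not independent. By peak number, other long genes above 0 for trained against naive mice numbered 3 of 180 in WT and 38 in KI mice of 5 months. At 8 months they numbered 160 in WT and 3 in KI mice. For KI against WT mice they numbered 13 in trained and 171 in naive mice of 8 months, and 176 and 140 at 5 months. Listed peaks of other long genes were not counted.

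Rows beyond 1 were spread over the same tables, and their counts include rows outside the bodies. Rows beyond 1 that overlapped a member body numbered 4 in KI against WT naive mice of 8 months. In trained against naive KI mice of 8 months they numbered 12. Between KI and WT mice there were 1 higher and 7 lower in trained mice of 8 months (2.54% and 5.7% of all listed peaks), 4 and 2 in naive mice of 8 months (6.74% and 1.75%), 0 and 1 in trained mice of 5 months (4.65% and 3.04%) and 3 and 3 in naive mice of 5 months (5.66% and 2.53%). Between trained and naive mice there were 7 higher and 9 lower in KI mice of 8 months (2.35% and 5.32%), 4 and 0 in WT mice of 8 months (5.83% and 2.96%), 0 and 8 in KI mice of 5 months (1.97% and 9.9%) and 1 and 5 in WT mice of 5 months (2.35% and 6.79%). The table of both genotypes together at 8 months, made from the same animals, held 3 higher and 2 lower (3.44% and 3.3%). The one at 5 months listed 0 higher and 9 lower (7.07% and 6.25%), but the level of an Htt intron peak on its naive side goes against its label, so no direction is drawn from it.

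Over the 8 tables of a single pair of conditions, 37 regions had a row beyond 1. Csmd1 supplied 10 of them, Opcml 6, and Lsamp, Ntm, Negr1 and Mdga2 4 each. Csmd3 supplied 5, all intronic. Its region at chr15:48488451-48489005 had a level of 6.37 in KI naive and 2.94 in WT naive mice of 8 months, and of 3.11 in KI trained and 6.42 in KI naive mice, a difference of -3.31. Its region at chr15:47824183-47824530 had a level of 3.68 in KI trained and 6.68 in WT trained mice of 8 months, and was called in 0 of 3 and 3 of 3 of them. In the same WT trained mice against WT naive mice the levels were 6.68 and 5.37. Calls and levels went the same way in both regions, with KI trained mice of 8 months at 0 of 3 in each.

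In Ntm, an intronic region (chr9:29290711-29291072) had a level of 2.22 in KI trained and 5.27 in KI naive mice of 8 months, and was listed at -0.13 in WT naive mice, against which no fold is given. It was called in 0, 3 and 0 of 3 animals of these conditions. The 5'UTR region of Lsamp (chr16:41533106-41533705) had a level of 4.64 in KI naive mice of 5 months and was listed at -0.11 in WT naive mice. It had a peak in 3 of 3 KI naive animals of that age, but also in 1 of 3 WT naive animals. The 3'UTR region of Negr1 that was called more often at 8 months had a level of 7.09 in KI trained and 4.68 in WT trained mice of 8 months, with peaks in 3 and 2 of 3 animals.

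In Csmd1, an intronic region (chr8:16323167-16323596) had a level of 4.22 in KI trained and 7.02 in WT trained mice of 8 months, with peaks in 1 and 3 of 3 animals. Levels and calls did not always go together: the Csmd1 region at chr8:17023646-17024194 had a level of 7.75 in KI trained and 1.17 in KI naive mice of 8 months, the widest gap of any member row, yet all 3 animals of both conditions had a peak there.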

How the data were processed

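Per the labels and the study's methods, total hippocampal RNA was fragmented, immunoprecipitated for m6A and sequenced with its input. The authors aligned reads to mm9 with STAR 2.7.3a and, by their methods, kept uniquely mapped reads outside repeats. They called peaks per animal against the input with MACS2 2.2.6. Several of the intronic stretches printed above still repeat a short unit. Whether the regions lie in annotated repeats was not tested. Each of the 24 deposited peak lists gives the fold enrichment (a ratio) and the −log10 q-value of every peak. The 10 deposited tables, made by the authors with DiffBind 2.8.0 over merged peaks, give group means on the log2 scale. Their fold change and p-value columns hold the study's own comparisons and were not used.

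Here, peaks of all animals overlapping by at least 1 bp were joined into regions, and each summit was placed in an intron or exon of the vM1 (mm9) annotation. Mdga2 has 2 entries there, with a gap between them. Members and gene lists were chosen with earlier results of these data known. Named regions were the region of each gene called in the most animals, the 3 with the smallest p per test and factor, and those of table rows beyond 1. Calls were compared by Fisher's exact test (scipy 1.17.1) over regions called in 3 to 21 animals. Log2 enrichment (regions called in all 24) and log2(summits + 1) per gene were fitted with limma 3.58.1 on 8 condition means, with Benjamini-Hochberg adjustment over all features. A further intronic sequence of each of Csmd1 and Ntm is not reported here. Scripts were tested on simulated data. Alternatives were other peak thresholds, joining rules and filters, an equal number of peaks per animal, total peaks as a covariate, and leaving out each animal. Depth is known only as peaks per animal (22601 to 57293). The limma p-values rest on the spread between animals within conditions. Those of Fisher's exact test rest on counts of animals, with the conditions of each side pooled.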

Additional observations from a re-analysis of the deposited data

How the results depend on the processing

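Across 1458 recomputed values, 1439 were judged unchanged. A difference was so judged if it kept its direction and its side of the threshold, and a count if it stayed equal or close. Leaving out 1 animal gave 1248 of these values, of which 1243 were unchanged and 5 reversed. Of the 210 values from other alternatives, 196 were unchanged, 7 reversed, 5 weaker, 1 stronger and 1 moved. With an equal number of best peaks per animal, the members' mean was 88.0 peaks per animal. Of the 395 member rows in the 10 tables, 17.5% had levels differing by more than 1, 62.5% by more than 0.5 and 4.05% by more than 2. The 1 member called for age (Csmd3) became 0 with total peaks as a covariate and 0 with intronic summits only, and the cause was not tested. The covariate reversed the genotype differences of Lsamp (-0.076), Opcml (-0.25), Negr1 (-0.062) and Csmd2 (-0.14), the training differences of Lsamp (0.051) and Opcml (0.050) and the age difference of Lsamp (-0.13), none of which was called either way.

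Leaving out each animal in turn gave a mean of 134 to 141 member peaks and an intronic share of 84.0% to 84.5%. The members called stayed at 0 to 0 for region calls, for region enrichment in each comparison and for peak number with genotype and training, and at 1 to 1 for peak number with age. The age difference of Ntm ran from -0.10 to 0.064 and that of Opcml from -0.15 to 0.0054. No paired analysis was possible because each replicate label is the number of a different animal, found in 1 condition only, and inputs were not analysed here.

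A peak is a call, not an amount of m6A. The 97 regions found in 1 animal have no second animal behind them, and read depth is not known. Levels in the tables have no spread and cover listed peaks only.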

Other observations

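Over the 24 animals, the summed number of summits in the 8 genes was most like that of Galntl6 (Spearman rho = 0.917), Cadm2 (0.915), Dlg2 (0.915), Exoc4 (0.900) and Nrg3 (0.896) among 1166 other genes averaging at least 5 summits. All of these genes have long bodies, from 725 kb in Exoc4 to 1945 kb in Dlg2, and share the animals and their yield with the members. Taken per total peaks of the animal, rho was 0.912 for Dlg2, 0.868 for Cadm2, 0.810 for Exoc4, 0.796 for Galntl6 and 0.563 for Nrg3. The total number of peaks itself had a rho of 0.494 with the members' summits.

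Of the 395 table rows named for a member, 82 carried the name Lsamp but lay outside the Lsamp body used here. The 5-month table of both genotypes together listed an Htt intron peak at a level of 10.4 in trained mice and 4.84 in naive mice. The naive groups of that age stood at 11.5 (KI) and 6 (WT) in the table that compares them, so the naive side of the joint table goes against its label and no level of a single member region was taken from it. Its 27 member rows, listed as 3 higher and 24 lower in trained mice, are counted in the 395 and in the shares of rows beyond each threshold.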
